A study of Mus musculus with 6 samples.

Results

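The 10 genes described here encode G protein-coupled receptors through which hormones and nerves act on islet cells: the glucagon-family receptors Glp1r, Gipr and Gcgr, the somatostatin receptors Sstr1, Sstr2, Sstr3 and Sstr5, the adrenergic receptor Adra2a, the muscarinic receptor Chrm3 and the galanin receptor Galr1. They were found by gene name in the deposited table, which holds 54532 genes, and all 10 were present. RNA came from mouse pancreatic islets labelled as beta cells, the insulin-secreting cells, in 3 control libraries of wild-type genotype (numbers 1, 3 and 4) and 3 libraries of Bcas2 conditional knockout (cKO) genotype (numbers 3, 4 and 5). BCAS2 belongs to the Prp19 complex of the spliceosome, and the series title places the gene in insulin synthesis and secretion. The sources used here do not give the Cre driver, the deleted exons, or the age, sex and number of mice. Knockout library 5 has no matching sample label and was placed in its group by its column name. No label ties a library to an animal of its own, so p-values here reflect only how these libraries scatter, in part perhaps technically.

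Receptors of this kind tune how much insulin a beta cell releases at a given glucose concentration. The receptors for the incretins GLP-1 and GIP, hormones of the gut, and the receptor for glucagon act through the stimulatory G protein Gs, raise cyclic AMP and increase secretion. Somatostatin from neighbouring delta cells, noradrenaline acting on Adra2a and galanin acting on Galr1 signal through inhibitory Gi and Go proteins, which lower cyclic AMP and open potassium channels. Acetylcholine from parasympathetic nerves acts on Chrm3 through Gq, which releases calcium from stores and activates protein kinase C.

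Gipr and Sstr3 fell in cKO, 1 receptor that raises secretion and 1 that restrains it, and the other receptors did not pass the test. Values are the deposited FPKM (read density over gene length, scaled for library depth), and the test was limma on log2(FPKM + 1) over the 13723 genes whose mean reached 1 FPKM, with a Benjamini-Hochberg adjusted p under 0.05 as the threshold. Sstr5 did not reach that mean and was not tested. Sstr1 reached it only through its cKO values. Of the 9 receptors tested, 2 fell, none rose and 7 were not called, where 7.55% of all tested genes fell and 6.97% rose. Of all tested genes 14.5% were called and 31.5% had an unadjusted p under 0.05. By that unadjusted threshold 3 receptors were lower and 1, Sstr2, was higher, and limma voom on recovered reads also called none higher. Gipr, Sstr3 and Chrm3 had no overlap between groups, all lower in cKO, which held for 21.1% of tested genes (38.0% had no overlap in either direction). The median log2 fold change of the 9 was -0.22, beside -0.03 over all tested genes.

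**Figure D1:**
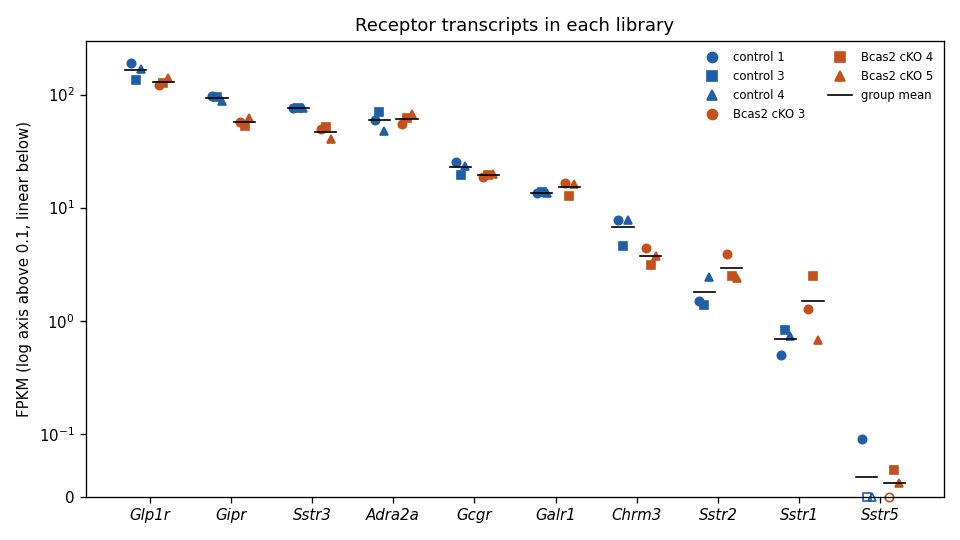
FPKM of the 10 receptors (log axis above 0.1, linear below) in each of the 3 control and 3 cKO libraries, with a bar at each group mean and open symbols at 0. The cKO points of Gipr, Sstr3 and Chrm3 lie below all control points, and Sstr5 lies near 0 in both groups.

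The libraries held 15170439 to 15594871 reads on genes in control and 16351800 to 16904326 in cKO, recovered from the FPKM. Bcas2 itself was at 10.3, 15.04 and 11.2 FPKM in control libraries 1, 3 and 4, against 8.76, 8.40 and 9.14 in cKO libraries 3, 4 and 5. All cKO values were lower, the transcript was present in every library, and the test did not call it (log2 fold change -0.42, limma adjusted p 0.083). It passed the threshold in 4 of 20 alternatives (adjusted p 0.035 to 0.33), stood at -0.27 without control library 3 and at -0.16 when rescaled without acinar genes. Over all genes, 957 rose and 1036 fell. Rises were 48.0% of these calls, 89.7% when libraries were rescaled to equal sums without acinar genes, 75.7% with voom scaled to library totals and 32.7% when rescaled without the hormone genes (Gcg, Iapp, Ppy, Pyy, Sst and both insulin genes), so directions of small changes depend on the scaling. Of 9 beta cell markers 2 fell and none rose, with 1 higher and 3 lower unadjusted, and they summed to 165485 to 264965 FPKM in control and 108523 to 128362 FPKM in cKO. Markers of exocrine acinar cells summed to 3723 to 9135 FPKM in control and 11220 to 35033 FPKM in cKO. All 13 were higher in every cKO library, which held for 16.8% of tested genes, and 5 were called. Of 6 alpha cell markers 2 rose (Irx1 and Irx2), and of 7 macrophage markers 5 rose, from a sum of 78.4 to 96.7 FPKM to one of 99.98 to 124 FPKM. Of 6 stellate markers 1 rose, and of 4 Schwann cell and neuron markers tested 1 rose and 1 fell. No delta, PP, ductal or endothelial marker was called. At an unadjusted p under 0.05 (31.5% of tested genes), all 13 acinar, 6 macrophage and 3 alpha markers were higher and none lower. The stellate list and the Schwann cell and neuron list each had 1 higher and 1 lower. Of delta markers 2 were higher, 1 ductal marker was higher and 1 lower, and none of the PP or endothelial lists passed. The part of these other cell types in the results on receptors was not tested.

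Per unit of gene length, Glp1r was the most abundant of the 10 receptors in control islets at 164 FPKM, followed by Gipr (93.3), Sstr3 (75.8), Adra2a (59.3), Gcgr (22.8), Galr1 (13.6), Chrm3 (6.71), Sstr2 (1.78), Sstr1 (0.686) and Sstr5 (0.031). Each lay above the next in all comparisons of control libraries. In cKO, Adra2a took second place with a mean of 61.4 FPKM, and its range overlapped that of Gipr. Within single cKO libraries, Adra2a was above Gipr in 2 of 3 and Sstr2 above Sstr1 in 2 of 3. Chrm3 was above Sstr2 in all 3, although the ranges of those receptors over the cKO libraries overlapped. The deposited gene model of Glp1r counts 1480 bases where GENCODE M21 has 5811 exonic bases, and that of Adra2a 3801 where M21 has 4832, so the places of both genes in this order depend on the gene model used.

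Gipr encodes the receptor for GIP, the incretin released by enteroendocrine K cells. It lies on chromosome 7 (19156061 to 19166127, minus strand, GRCm38; ENSMUSG00000030406), and its coding sequence is split over 13 exons. FPKM was 96.5, 96.1 and 87.4 in control libraries 1, 3 and 4, against 56.9, 53.1 and 61.8 in cKO libraries 3, 4 and 5. The lowest control library lay well above the highest cKO library, on 3253 to 5331 reads per library. The means were 93.3 ± 5.11 and 57.3 ± 4.37 FPKM (SD, n = 3 each), a ratio of 0.613. This was a log2 fold change of -0.70 (SE 0.092, 95% interval -0.92 to -0.48, limma adjusted p 0.0062), below that of all but 2.99% of tested genes. The call held without each library in turn and in 18 of 20 alternatives (adjusted p 0.0012 to 0.073). It was lost when libraries were rescaled to equal sums without acinar genes, a sum that keeps the insulin genes (log2 fold change -0.42, limma adjusted p 0.062), and in a model with a term for library number.

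Glp1r encodes the receptor for GLP-1 and is the target of the GLP-1 agonist drugs used in diabetes. It lies on chromosome 17 (30901867 to 30936510, plus strand; ENSMUSG00000024027). FPKM was 190, 134.0 and 167 in control libraries 1, 3 and 4, against 123, 127 and 141 in cKO libraries 3, 4 and 5. Control library 3 fell inside the cKO range, so the groups overlapped. The means were 164 ± 28.2 and 130.0 ± 9.64 FPKM (SD, n = 3 each). The log2 fold change of -0.32 (SE 0.14, 95% interval -0.66 to 0.02, limma adjusted p 0.18) did not pass the threshold in any alternative (adjusted p 0.061 to 0.90). It was -0.20 without control library 1 and -0.04 when rescaled without acinar genes.

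Gcgr, a receptor through which glucagon from alpha cells acts on beta cells, lies on chromosome 11 (120530699 to 120538986, plus strand, ENSMUSG00000025127). It was 25.4, 19.5 and 23.4 FPKM in control libraries 1, 3 and 4 and 18.8, 19.3 and 19.95 FPKM in cKO libraries 3, 4 and 5. As for Glp1r, only control library 3 fell among the cKO values. Its log2 fold change was -0.22 (SE 0.11, 95% interval -0.47 to 0.03, limma adjusted p 0.21), and it was -0.14 without control library 1 and turned to 0.05 when libraries were rescaled to equal sums without acinar genes. The ratio of Glp1r to Gipr FPKM was 1.97, 1.39 and 1.91 in control and 2.15, 2.39 and 2.28 in cKO, higher in every cKO library. The size of this ratio depends on the gene model used for Glp1r. The 2-sided exact permutation p of that ratio was 0.1, the smallest that 3 against 3 libraries allow, and 0.125 adjusted over the 10 sums and ratios computed, which were chosen after the values were seen.

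**Figure D2:**
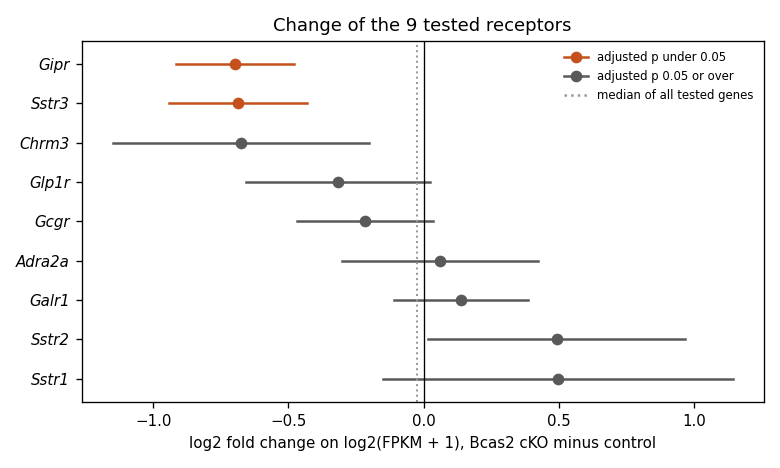
Log2 fold change (cKO minus control, on the log2(FPKM + 1) scale) of the 9 tested receptors, as points with 95% intervals from limma over 3 libraries a group. Gipr and Sstr3, in orange, passed the threshold, and the dotted line marks the median of all tested genes at -0.03.

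Sstr3 was the main somatostatin receptor transcript in these islets. Its protein is known for its place in the primary cilium. The gene lies on chromosome 15 (78537008 to 78544685, minus strand; ENSMUSG00000044933), with its whole coding sequence in 1 exon. Control libraries 1, 3 and 4 were nearly equal at 75.6, 75.9 and 76.0 FPKM, and cKO libraries 3, 4 and 5 held 49.3, 51.7 and 40.1 FPKM. Every cKO library lay below every control library, on 2991 to 5179 reads per library. The means were 75.8 ± 0.239 and 47.0 ± 6.10 FPKM (SD, n = 3 each), a ratio of 0.620. The log2 fold change was -0.69 (SE 0.11, 95% interval -0.94 to -0.43, limma adjusted p 0.0105). Leaving out each library in turn kept the call (adjusted p 0.023 to 0.042). As for Gipr, it was lost in 2 of 20 alternatives (adjusted p 0.0024 to 0.11), rescaling without acinar genes (log2 fold change -0.41, limma adjusted p 0.11) and the model with a term for library number.

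Sstr2, the somatostatin receptor best known from alpha cells, was not called. It lies on chromosome 11 (113619342 to 113626028, plus strand; ENSMUSG00000047904). FPKM was 1.5004, 1.38 and 2.45 in control libraries 1, 3 and 4, against 3.88, 2.47 and 2.38 in cKO libraries 3, 4 and 5. Control library 4 lay between cKO libraries 4 and 5, so the groups overlapped. Its log2 fold change was 0.49 (SE 0.20, 95% interval 0.02 to 0.97, limma adjusted p 0.15, 0.084 to 0.35 over the alternatives), on 40 to 151 reads per library. It was 0.32 without cKO library 3 and up to 0.86 with voom.

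Sstr1 (chromosome 12, 58211772 to 58214444, plus strand; ENSMUSG00000035431) was low throughout, with 0.493, 0.833 and 0.732 FPKM in control libraries 1, 3 and 4 and 1.27, 2.50 and 0.680 FPKM in cKO libraries 3, 4 and 5. cKO library 4 was high and library 5 lay inside the control range, on 16 to 90 reads, and the log2 fold change of 0.50 (SE 0.27, limma adjusted p 0.26) was not called and reached 1.07 with voom. Sstr5 (chromosome 17, 25489875 to 25497288, minus strand; ENSMUSG00000050824) had 4, 0 and 0 reads in control libraries 1, 3 and 4 and 0, 2 and 1 in cKO libraries 3, 4 and 5. At this depth 3 reads correspond to 0.061 to 0.081 FPKM, a limit that covers counting error only, and no difference in Sstr5 was detectable. Sstr3 made up 97.2, 97.2 and 96.0% of the summed FPKM of Sstr1 to Sstr5 in control and 90.4, 91.0 and 92.7% in cKO. The sum itself was 78.4 ± 0.763 and 51.5 ± 7.22 FPKM (SD, n = 3 each). The groups did not overlap for either measure (2-sided exact permutation p = 0.1, the smallest possible, and 0.125 adjusted).

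The start regions of Sstr3, the somatostatin receptor that fell, and of Sstr2, its relative with a fold change above 0, are shown for comparison from the RefSeq promoter table (GRCm38.p6), 250 bases before to 50 bases after an annotated start. RefSeq places 2 starts for Sstr3, at chr15:78544296-78544595 and chr15:78541357-78541656 (minus strand), and 1 for Sstr2, at chr11:113619077-113619376 (plus strand). Each is printed 5′ to 3′ in the direction of the gene. Capitals mark matches to 5 motifs on either strand, and a match on the other strand reads as its reverse complement. These were the cyclic AMP response element TGACGTCA and its shorter form TGACG, which lies within the former. The others were the CCAAT box (spelled as named), the GC box GGGCGG, and the TATA box, spelled TATAAA and found in 13.6% of windows.
Sstr3, window from 78544296: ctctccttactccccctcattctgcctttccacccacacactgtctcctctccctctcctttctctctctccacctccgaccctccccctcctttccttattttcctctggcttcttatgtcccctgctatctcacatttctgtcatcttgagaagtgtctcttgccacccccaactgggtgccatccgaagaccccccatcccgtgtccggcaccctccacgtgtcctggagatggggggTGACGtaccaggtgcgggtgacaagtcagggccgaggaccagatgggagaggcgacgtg
Sstr3, window from 78541357: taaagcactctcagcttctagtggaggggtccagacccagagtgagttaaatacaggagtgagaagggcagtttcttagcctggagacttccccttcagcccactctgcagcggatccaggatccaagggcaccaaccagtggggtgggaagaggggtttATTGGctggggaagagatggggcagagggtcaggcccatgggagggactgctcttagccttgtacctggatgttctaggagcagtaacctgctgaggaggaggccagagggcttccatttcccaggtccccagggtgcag
Sstr2: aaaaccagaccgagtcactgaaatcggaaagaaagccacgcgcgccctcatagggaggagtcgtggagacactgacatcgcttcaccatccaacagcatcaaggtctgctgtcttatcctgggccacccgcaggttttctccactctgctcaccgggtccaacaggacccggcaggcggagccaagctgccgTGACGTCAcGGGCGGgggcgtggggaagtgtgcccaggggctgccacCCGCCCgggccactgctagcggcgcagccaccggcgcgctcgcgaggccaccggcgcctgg
The Sstr2 window held the full element TGACGTCA, found in 1.79% of the 32851 windows of that length in the table, and GGGCGG at 2 places, a motif found in 35.7% of windows. The Sstr3 windows held neither, and none of the 3 windows held a TATA box. The first of them had 1 TGACG, found in 20.8% of windows, and the other 1 match to CCAAT, found in 37.4%. These windows also differed in composition, with 27 CpG dinucleotides in that of Sstr2 against 10 and 1 in those of Sstr3, and a median of 7 over all windows. The windows of Glp1r, Gcgr, Chrm3 and Adra2a, receptors that were not called, also lacked TGACGTCA. That of Bcas2, lower in every cKO library though not called, held it. GGGCGG was present for Glp1r, Gcgr and Adra2a and absent for Chrm3 and Bcas2. A match describes the letters only, and no link between motifs and changes was tested. The table had windows for 6 of the 10 receptors.

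Adra2a, the receptor through which noradrenaline inhibits insulin release, lies on chromosome 19 (54045182 to 54048982, plus strand; ENSMUSG00000033717). It held 59.6, 70.2 and 48.1 FPKM in control libraries 1, 3 and 4 and 54.4, 62.2 and 67.5 FPKM in cKO libraries 3, 4 and 5. The 2 groups were interleaved. The log2 fold change of 0.06 (SE 0.15, 95% interval -0.30 to 0.42, limma adjusted p 0.82) changed sign in 3 alternatives and had no stable direction. The ratio of Sstr3 to Adra2a FPKM, both Gi-coupled, was 1.27, 1.08 and 1.58 in control and 0.906, 0.830 and 0.595 in cKO. The ratio was lower in every cKO library (2-sided exact permutation p = 0.1, the smallest possible, and 0.125 adjusted). Whether it lies above or below 1 depends on the gene lengths used.

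Galr1, the galanin receptor, lies on chromosome 18 (82392496 to 82406777, minus strand; ENSMUSG00000024553). It held 13.5, 13.8 and 13.4 FPKM in control libraries 1, 3 and 4 and 16.4, 12.8 and 16.1 FPKM in cKO libraries 3, 4 and 5. The control values were close together, and cKO values lay on both sides of them. Its log2 fold change was 0.14 (SE 0.10, 95% interval -0.11 to 0.38, limma adjusted p 0.41). Without cKO libraries 3, 4 and 5 in turn it was 0.08, 0.25 and 0.09, and other scalings gave 0.03 to 0.39, with no call. Gal, which encodes the ligand galanin and was singled out after its values were seen, was 2.13 ± 0.576 and 4.96 ± 2.12 FPKM (SD, n = 3 each) and was not called (log2 fold change 0.87, limma adjusted p 0.086).

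Chrm3, the main muscarinic receptor of beta cells, lies on chromosome 13 (9875486 to 10360847, minus strand; ENSMUSG00000046159). FPKM was 7.80, 4.55 and 7.76 in control libraries 1, 3 and 4, against 4.40, 3.10 and 3.74 in cKO libraries 3, 4 and 5. Every cKO value was lower, although control library 3 lay close to cKO library 3. The log2 fold change was -0.68 (SE 0.20, 95% interval -1.15 to -0.20), and the limma adjusted p was 0.066. On this log2(FPKM + 1) scale, which understates changes of low genes, Gipr and Sstr3 stood close by. The ratio of means was 0.558 for Chrm3, lower than for Gipr (0.613) and Sstr3 (0.620). Chrm3 passed the threshold without control library 3 (log2 fold change -0.90, limma adjusted p 0.018), with library weights (0.037) and with voom on recovered reads (0.027). Its adjusted p ranged up to 0.28 in the other alternatives.

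Summed by the G protein they use, the Gs-coupled receptors Glp1r, Gipr and Gcgr came to 312, 250 and 278 FPKM in control against 198, 199 and 223 FPKM in cKO. The Gi-coupled receptors (Sstr1, Sstr2, Sstr3, Sstr5, Adra2a and Galr1) came to 151, 162 and 141 FPKM in control against 125, 132 and 127 FPKM in cKO. Both sums were lower in every cKO library (2-sided exact permutation p = 0.1, the smallest possible, and 0.125 adjusted). The same held for 21.1% of tested genes. The Gs sum includes Gipr and the Gi sum includes Sstr3, the 2 receptors called singly, so these sums are not separate results. In the Gi sum Sstr3 was the member with a lower mean in cKO among those tested, and the means of Sstr1, Sstr2, Adra2a and Galr1 were higher there, none of them called. The ratio of the Gs to the Gi sum was 1.86 ± 0.283 and 1.62 ± 0.126 (SD, n = 3 each), and its groups overlapped (2-sided exact permutation p = 0.3, 0.333 adjusted). The sizes of these sums and of their ratio depend on the gene models used for Glp1r and Adra2a.

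Gipr and Sstr3 were also set against the 9 beta cell markers of the list, because in bulk RNA fewer cells of a type and less RNA per cell cannot be told apart. Both receptors were lower in every cKO library relative to 4 of the 9 markers, Pdx1, Nkx6-1, Mafa and G6pc2. Relative to the other 5 (Ins1, Ins2, Iapp, Slc2a2 and Ucn3) the groups overlapped. Those 5 markers were themselves lower in every cKO library. Pdx1, Nkx6-1 and G6pc2 overlapped between groups, and Mafa was higher in every cKO library. The split thus follows how the markers themselves moved, and whether the receptors fell beyond beta cell content was not tested. The ratio of Gipr to Pdx1 changed by a factor of 0.715 and that of Sstr3 to Pdx1 by 0.725, while the ratios to Slc2a2 changed by 1.10 and 1.13. The ratio of Gipr to Sstr3 itself was 1.23 ± 0.070 in control and 1.24 ± 0.267 in cKO (SD, n = 3 each). With libraries rescaled without both hormone genes and acinar markers, the calls of Gipr and Sstr3 were kept.

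Of 20 relatives of these receptors reported here, 5 passed the filter, and limma called none of them and gave none an unadjusted p under 0.05. The most abundant was Vipr1, a receptor for the neuropeptide VIP, which acts through Gs like the incretin receptors. Its FPKM was 20.5, 20.9 and 24.8 in control libraries 1, 3 and 4, against 15.99, 21.003 and 18.0 in cKO libraries 3, 4 and 5. Control and cKO values overlapped (log2 fold change -0.26, SE 0.12, limma adjusted p 0.20).

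Counts in the signalling lists that follow stand beside 6.97% of all tested genes that rose, 7.55% that fell and 31.5% with an unadjusted p under 0.05. They depend on the scaling. Rescaling to equal sums without acinar genes took the falls over all genes from 1036 to 216 and the rises from 957 to 1880. That rescaling ended the calls of Th, Pcsk2, Gnao1, Gng4, Prkacb and Prkca, all of them falls. Calls of the falling genes Ddc, Prkcb and Grk5 and of the rising genes Prkd1, Grk2, Pde7b, Pde1b, Crem and Kcnj5 held there. Among genes that make ligands or transmitters, 3 of the 9 tested fell and none rose. Ddc, the decarboxylase that makes dopamine and serotonin, held 87.9, 85.6 and 78.6 FPKM in control libraries 1, 3 and 4 and 45.2, 45.1 and 40.7 FPKM in cKO libraries 3, 4 and 5. The drop was near-uniform across the 3 libraries (log2 fold change -0.93, SE 0.087, limma adjusted p 0.0024). Th, which starts catecholamine synthesis, fell from 19.2 ± 4.63 to 10.3 ± 2.68 FPKM (SD, n = 3 each; log2 fold change -0.83, limma adjusted p 0.042), and kept its call in only 1 of 6 leave-one-out fits. Pcsk2, the convertase that frees somatostatin and glucagon from their precursors, fell by 0.63 on the log2 scale. At an unadjusted p under 0.05, 2 genes of the list were higher. The hormone genes Gcg and Sst were not called, and Gip had no reads in any library. Gcg was 19242 ± 1382 and 23395 ± 2846 FPKM (SD, n = 3 each; log2 fold change 0.28, limma adjusted p 0.63). It was higher in every cKO library, which held for 16.8% of tested genes. Sst was 5597 ± 1721 and 4612 ± 738 FPKM (SD, n = 3 each), and its groups overlapped.

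Of 10 G protein alpha subunits tested, 1 fell and none rose, and the gene that fell was Gnao1, which encodes Go, the inhibitory subunit typical of neurons and endocrine cells. It held 53.5, 47.7 and 53.9 FPKM in control libraries 1, 3 and 4 and 41.1, 36.6 and 37.1 FPKM in cKO libraries 3, 4 and 5 (log2 fold change -0.42, SE 0.089, limma adjusted p 0.024). Its groups did not overlap, although the call was kept in only 2 of 6 leave-one-out fits. At an unadjusted p under 0.05, 4 alpha subunits were higher and 2 lower. Gng4 fell among 10 beta and gamma subunits (log2 fold change -0.51, limma adjusted p 0.040) and none rose, with 2 higher and 1 lower unadjusted, and its call was lost in all 6 leave-one-out fits.

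In the cyclic AMP path, none of the 4 adenylyl cyclases tested was called, nor did any reach an unadjusted p under 0.05. Adcy6 was 30.9 ± 0.906 and 30.3 ± 1.06 FPKM (SD, n = 3 each). Of 10 phosphodiesterases, which break down cyclic AMP and, for some of them, also cyclic GMP, 2 rose and none fell. At an unadjusted p under 0.05, 5 were higher and 1 lower. Pde7b rose from 0.585 ± 0.107 to 1.84 ± 0.362 FPKM and Pde1b from 0.947 ± 0.162 to 1.87 ± 0.280 FPKM (SD, n = 3 each), and both passed the filter only through their cKO values. Their calls were kept in 3 and 1 of 6 leave-one-out fits. Of 14 genes of PKA, Epac and the CREB factors, 1 rose and 1 fell. Prkacb, a catalytic subunit of PKA, held 59.96, 69.5 and 72.5 FPKM in control libraries 1, 3 and 4 and 42.9, 43.5 and 44.4 FPKM in cKO libraries 3, 4 and 5. It was lower in every cKO library (log2 fold change -0.61, SE 0.093, limma adjusted p 0.0094) and kept its call without each library in turn. Crem, a factor of the CREB family whose product includes an inducible repressor, rose by 0.79 on the log2 scale (limma adjusted p 0.049) and kept that call in 1 of 6 leave-one-out fits.

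Of 11 tested Gq effectors, which act downstream of Chrm3, 5 fell and 1 rose, against 7.55% and 6.97% of all genes. The falls were those of Prkca and Prkcb and, named after their values were seen, Prkce and the IP3 receptors Itpr2 and Itpr3. The limma adjusted p was 0.0047 for Prkce, 0.037 for Itpr2 and 0.047 for Itpr3. Itpr2 passed the filter only through its control values, with means of 1.94 FPKM in control and 0.869 FPKM in cKO. Prkca, a calcium-dependent protein kinase C, held 12.999, 11.8 and 13.8 FPKM in control libraries 1, 3 and 4 and 8.19, 6.24 and 5.61 FPKM in cKO libraries 3, 4 and 5. The groups were far apart (log2 fold change -0.86, SE 0.13, limma adjusted p 0.0098). Prkcb, its close relative, fell from 10.1 ± 0.716 to 5.20 ± 0.572 FPKM (SD, n = 3 each; log2 fold change -0.84, limma adjusted p 0.0036). Prkd1, protein kinase D1, moved the opposite way, from 9.54 ± 1.45 to 18.2 ± 1.42 FPKM (log2 fold change 0.87, limma adjusted p 0.0062). Calls for Prkca, Prkcb and Prkd1 were kept without each library in turn. For Prkce, Itpr2 and Itpr3 the alternatives are not reported here.

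Receptor kinases and arrestins switch active receptors off. Of 5 tested, 1 rose and 1 fell, with 1 higher and 3 lower at an unadjusted p under 0.05. Grk5, a G protein-coupled receptor kinase anchored at the membrane, held 22.5, 17.8 and 16.7 FPKM in control libraries 1, 3 and 4 and 7.84, 7.22 and 9.53 FPKM in cKO libraries 3, 4 and 5. The lowest control library was well above the highest cKO library (log2 fold change -1.12, SE 0.14, limma adjusted p 0.0049). Grk2, the kinase recruited by free beta and gamma subunits, held 22.5, 23.4 and 21.3 FPKM in control against 31.9, 34.9 and 34.96 FPKM in cKO. Every cKO value was higher (log2 fold change 0.58, SE 0.077, limma adjusted p 0.0063). Both calls were kept without each library in turn. Among the potassium channel genes that Gi-coupled receptors open, Kcnj5 was 0.215, 0.206 and 0.174 FPKM in control against 3.16, 1.08 and 1.66 FPKM in cKO (log2 fold change 1.25, SE 0.26, limma adjusted p 0.024), and the other gene tested was not called. Kcnj5 passed the filter only through its cKO values. It was tested in 4 leave-one-out fits, of which those without control library 3 or control library 4 did not call it.

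**Figure D3:**
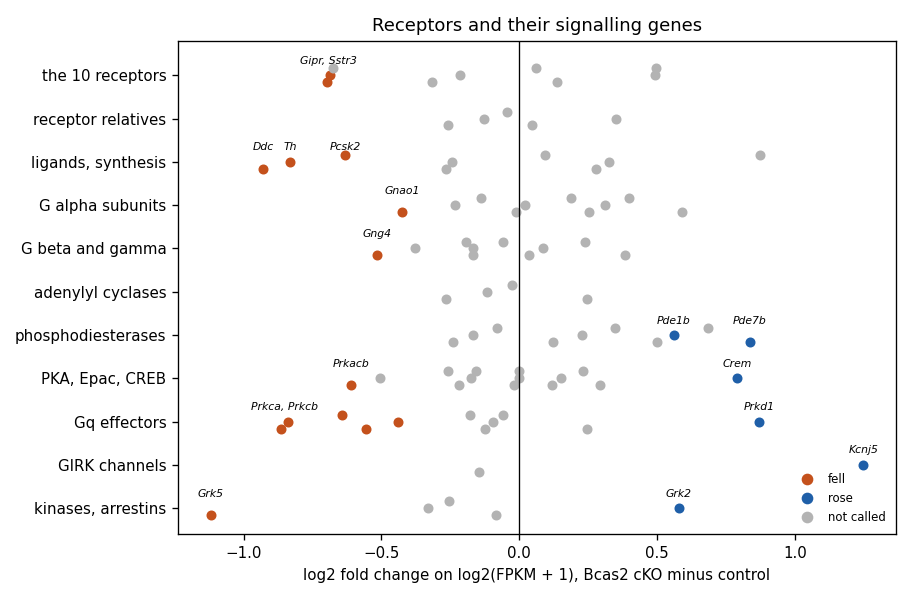
Log2 fold change (cKO minus control, on the log2(FPKM + 1) scale) of each gene that passed the filter, by list, with genes that fell in orange, genes that rose in blue and genes not called in grey. Up to 3 called genes a list are named, and the row of Gq effectors holds 5 of the falls.

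The 2 receptors that fell differ in gene structure, as Gipr has 13 coding exons and Sstr3 has 1. Among those not called, Glp1r and Gcgr also have 13 coding exons, Galr1 has 3, and Sstr1, Sstr2, Adra2a and Chrm3 have 1 each. Coding exons are not all exons, as the coding transcript of Sstr3 used here has 3 exons and that of Chrm3 has 5. No exonic base of the 10 receptors is shared with another gene in GENCODE M21, although the spans of Glp1r, Gcgr, Sstr2 and Chrm3 overlap other genes, and reads from introns cannot be assigned by strand from these files.

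**Figure D4:**
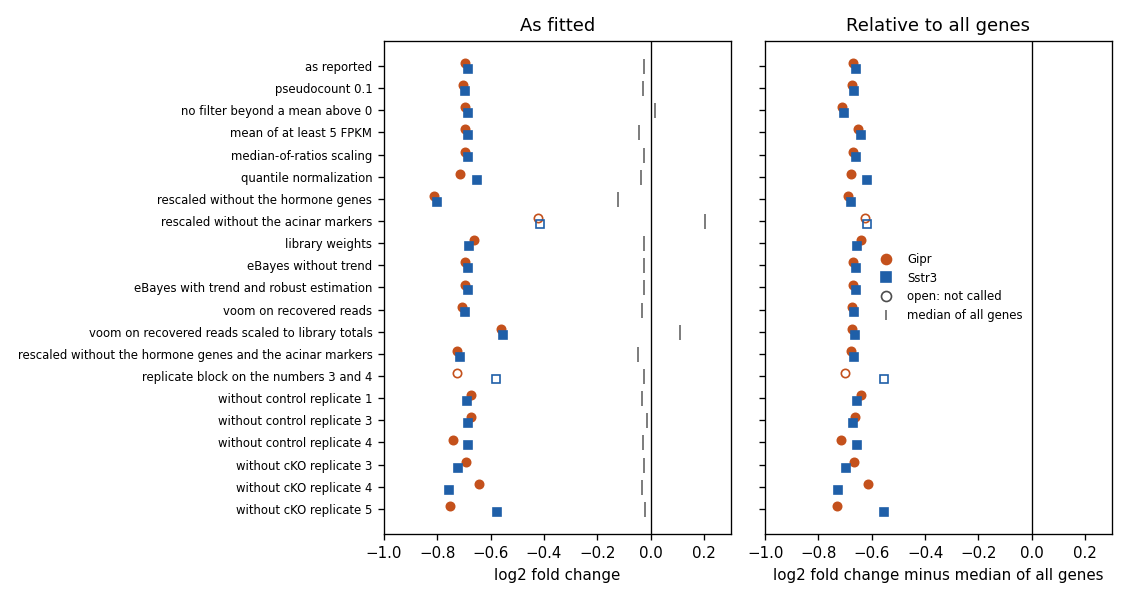
Log2 fold change of Gipr and Sstr3 under the reported fit and each alternative, as fitted (left, with a tick at the median of all tested genes) and after subtracting that median (right), with open symbols where the adjusted p was 0.05 or over. Rescaling without acinar genes moves the receptors and the median together, as it would any well-expressed gene, to 0.20 for the median.

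Relative to the median of all genes, Gipr stood at -0.61 to -0.73 and Sstr3 at -0.55 to -0.73 on the log2 scale over the reported fit and all 20 alternatives. A rescaling multiplies each library by a single factor, so it moves the median and any well-expressed gene by a like amount. The steadiness of these values over the rescalings was therefore fixed in advance and adds no support to the calls.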

How the data were processed

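RNA of 6 islet samples was sequenced with a SMARTer mRNA-seq kit after Trizol extraction, per the labels' protocols. The deposited values are FPKM, with gene length, coordinates and biotype, per the file headers. The build was GRCm38 (mm10), per the submitters' processing notes; the sources used here do not give the aligner, counter, strand setting or scaling between libraries. Column names gave the samples. The labels number the Bcas2 cKO samples 1, 3 and 4, but the table has columns 3, 4 and 5, so column 5 was used as a group member with no sample of its own. Whole reads were recovered from FPKM and gene length, since 100% of values were multiples (within 0.01 read) of the value of 1 read in their library; the depth in the FPKM was 0.890 to 1.11 times their totals. No library pair agreed within sampling noise (chi-square at least 13.6 per degree of freedom).

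The test was limma 3.58.1 (lmFit, eBayes with trend, in R 4.3.3) on log2(FPKM + 1), run and adjusted over the 13723 genes whose mean reached 1 FPKM. This scale understates changes of low genes. Sums and ratios had 2-sided exact permutation tests (scipy 1.17.1). The fit was tested on simulated data. Alternatives covered pseudocount, filter, scaling, weights, voom, a replicate block and leaving out each library; voom on library totals and rescaling without hormone and acinar genes together were chosen after seeing the data. The members and lists were chosen with earlier results of these data known, and 1 relative of the receptors is not reported here. The text names all members, Bcas2, up to 3 called genes of largest change per signalling list (or its most abundant gene) and, for markers, those the results touch. For 54409 of 54532 identifiers GENCODE M21 had an entry, and 98.3% of these had the same start and end.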

Additional observations from a re-analysis of the deposited data

How the results depend on the processing

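The direction of Gipr and Sstr3 was the same in all 20 alternatives, and each was called in 18 of them. The number of receptors called was 2 in the reported fit, 2 to 3 with a library left out, and 0 both when libraries were rescaled to equal sums without acinar genes, a sum that keeps Ins1 and Ins2, and with the replicate block. The count of all called genes was 878 to 1950 with a library left out (control: 1318 without library 3 and 888 without library 4; cKO: 878, 921 and 928 without libraries 3, 4 and 5), 1144 without a filter and 538 with the block. Bcas2 passed the threshold in 4 alternatives, rescaled without the hormone genes (-0.52), with voom (-0.45), rescaled without hormone and acinar genes (-0.44) and without control library 1 (-0.52), and lay between -0.52 and -0.27 with a library left out. Adra2a changed sign when rescaled without the hormone genes (-0.055) and lay between -0.079 and 0.19 with a library left out, below 0 without control library 4 or cKO library 5 (-0.0090). Gcgr changed sign when rescaled without acinar genes (0.046).

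The replicate block used the numbers 3 and 4, which both groups share, and nothing in the labels says that a number marks a shared animal or day. Deviations of libraries with the same number correlated at -0.15 for number 3 and 0.05 for number 4 across genes. With the block, Gipr had a log2 fold change of -0.73 (limma adjusted p 0.073) and Sstr3 of -0.58 (0.11), and of the called signalling genes given with fold changes above only Prkd1 and Grk5 were still called.

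Sstr1, Sstr5 and Kcnj5 rest on few reads, and changes in Sstr5 could not be detected at this depth. Sstr1 was not tested without cKO library 4, and Sstr1 and Sstr2 not over genes of at least 5 FPKM.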
